A study of Mus musculus with 30 samples.

Results

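The experiment described here introduced a plasmid for the transcription factor Jun into NIH3T3-CG cells and set their RNA against that of the same line given a control plasmid. The members were chosen by their labels, and they are 6 of the 30 bulk mRNA libraries of the series: 3 labelled as Jun transfections (Jun libraries) and 3 labelled as controls for the Jun and Egr1 transfections (control libraries). NIH3T3 is a mouse embryonic fibroblast line; the labels do not explain the suffix CG, the time between transfection and harvest, or the promoter on the plasmid. Both groups were transfected, released with trypsin and extracted as total RNA, and the labels state no other treatment. A further 3 libraries of cells given an Egr1 plasmid shared these controls and entered the same model. The labels do not say whether the replicates were separate cultures, so p-values rest on library-to-library spread alone, part or all of which can be technical.

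Jun is a basic leucine zipper protein. It binds DNA as a homodimer or with Fos, ATF or Maf relatives, and the dimers with Fos are called AP-1. AP-1 dimers bind the 7-base TGACTCA element, and dimers with ATF proteins favour the 8-base TGACGTCA element. In fibroblasts, AP-1 is known from growth factor responses, cell cycle entry, matrix proteases and the balance with p53. Jun N-terminal kinases (JNK) phosphorylate Jun and raise its activity.

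The Jun libraries held 25329478 to 33085283 estimated counts, the control libraries 28567590 to 36470538 and the Egr1 libraries 29452035 to 37068611. All 12 fibroblast markers had counts in each of these 9 libraries. Their summed level was 9587, 9641 and 9934 CPM (read counts scaled by library size and TMM factors) in the Jun libraries and 9460, 8201 and 9271 CPM in the control libraries. Control replicate 2 stood apart. It had 500 genes at 1 CPM or more and at 5 times or more the level of the next of the 9 libraries, against 0 or 1 such genes in each Jun library and 1 and 2 in the other control libraries. Its 19 neural markers summed to 224.9 CPM, against 24.8 to 28.1 CPM in the Jun libraries and 20.1 and 25.6 CPM in the other controls. The neuronal cytoskeletal genes Map2 and Stmn2 stood at 53.5 and 31.7 CPM in it. Of the 500 genes, 162 were tested and 0 were called in edgeR, where 0.956% of all tested genes were called. Genes picked as high in 1 control library vary widely among the controls, so a call was unlikely. The 0 therefore does not show that other calls are free of this library's influence. Egr1 replicate 3 carried 322 genes picked by the same rule, with the epithelial keratin Krt18 at 104.3 CPM. Calls on named genes are therefore given with the adjusted p when control replicate 2 is left out.

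Promoter windows of genes on which the results turn are shown because the motif that Jun dimers bind can be seen in them. They come from RefSeq on GRCm38.p6, run 5′ to 3′ on the gene's strand with up to 60 bases either side of the match, end before the annotated start, and carry in capitals a match to TGACTCA or its other strand TGAGTCA, to TGACGTCA, or, at Jun, to the variant TGACATCA. Positions count back from the start site. The Jun window is chr4:95052223-95052327 on the minus strand with its match at -45. The Mmp10 window is chr9:7502219-7502341 on the plus strand with its match at -63. The Xirp2 window is chr2:67445835-67445961 on the plus strand with its match at -107. The Ppp1r15a window is chr7:45526269-45526340 on the minus strand with its match at -12, and the Maff window is chr15:79347431-79347519 on the plus strand with its match at -29.
Jun: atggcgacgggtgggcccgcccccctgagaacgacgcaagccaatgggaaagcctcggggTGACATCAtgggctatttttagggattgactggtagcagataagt
Mmp10: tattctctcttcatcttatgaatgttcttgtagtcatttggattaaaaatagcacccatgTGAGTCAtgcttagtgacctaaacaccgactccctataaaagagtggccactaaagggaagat
Xirp2: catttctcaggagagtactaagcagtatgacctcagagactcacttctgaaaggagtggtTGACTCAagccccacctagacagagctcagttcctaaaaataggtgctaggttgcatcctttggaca
Ppp1r15a: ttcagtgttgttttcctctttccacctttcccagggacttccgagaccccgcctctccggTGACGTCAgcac
Maff: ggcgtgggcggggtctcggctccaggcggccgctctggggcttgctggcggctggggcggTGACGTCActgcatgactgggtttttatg

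Jun (chromosome 4, 95049034 to 95052222, minus strand) stood at 3806, 4633 and 4587 CPM in the Jun libraries and at 205.3, 189.8 and 193.4 CPM in the control libraries. The groups lay far apart, with a log2 fold change of 4.47 ± 0.081 (standard error, SE) and an adjusted p of 1.34e-11 in edgeR's quasi-likelihood test, two-sided, with Benjamini-Hochberg adjustment (2.77e-09 without control replicate 2). In RNA from bulk cells, a larger share of cells with the gene and more RNA per cell cannot be told apart, and the counts do not separate plasmid from chromosomal Jun RNA. None of the other 6 Jun and Fos genes rose. Junb and Jund, the other Jun subunits, had log2 fold changes of -0.02 ± 0.081 and 0.12 ± 0.054. Fos, Fosb and Fosl2 were at 0.12 ± 0.37, 0.14 ± 0.18 and 0.03 ± 0.044. Fosl1, a Fos subunit without an activation domain like that of Fos, fell, with 100.2, 119.8 and 111.2 CPM in the Jun libraries against 140.5, 137.9 and 144.9 CPM in the control libraries. Its log2 fold change was -0.35 ± 0.057 (adjusted p = 0.0119, and 0.0218 without control replicate 2), and 45.5% of its 31-mers were found in no other gene, so its level is uncertain.

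Of 14539 genes tested, 139 passed the threshold of an adjusted p under 0.05, which is 0.956% of them. In all, 66 were higher in the Jun libraries (0.454%) and 73 lower (0.502%). In each of the 139 the 3 Jun and the 3 control libraries did not overlap, which selection by a small p favours and which is no separate support. Changes were mostly small: 101 of the 139 were under 1.5-fold and 31 were over 2-fold, of which 9 were higher and 22 lower. The median log2 fold change was 0.28 among called higher genes, -0.39 among called lower genes and -0.006 over all tested genes. The number of calls moved with single libraries, to 38, 46 and 29 without Jun replicate 1, 2 and 3, to 68 and 54 without control replicate 2 and 3, and to 73 and 328 without Egr1 replicate 2 and 3. Of the 139 calls 47.5% were higher genes. Scaling by library totals alone gave 224 calls, 67% of them higher. Limma on log2(TPM + 1), with no further scaling between libraries, gave 1635 calls, 97.4% of them higher. There the median of all genes was 0.145, so the whole scale was shifted and these calls are not like those of the main fit. For Jun minus Egr1 on that scale the median was -0.00054, with 14 calls. Of 69 called genes named below with their values, 40 kept the call without control replicate 2. A set of 19 kept it without any 1 of the 6 Jun and control libraries: Jun, Hipk2, Thsd7a, Gm7897 and Gm18445 among higher genes, and mScarlet, P2rx7, Eng, Id3, Atp13a4, Ppp1r15a, Elmod3, Gadd45g, Hmox1, Eda2r, Msh3, Mdm2, Oser1 and Maff among lower ones. Every other call among the 69 ended without at least 1 of these libraries.

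**Figure D1:**
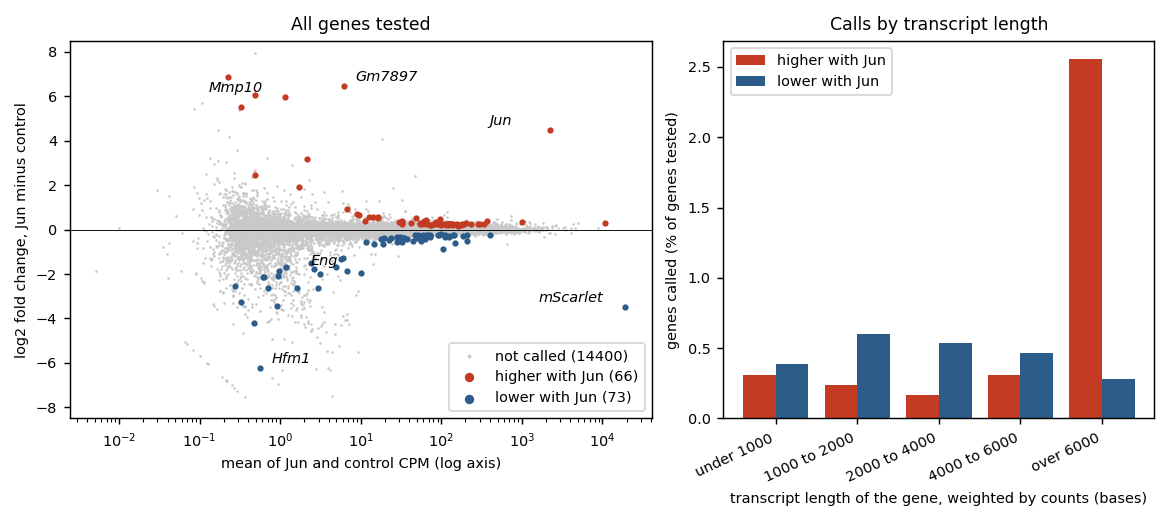
Left, each gene's log2 fold change (Jun minus control) against its mean CPM in the 2 groups on a log axis, with the 66 higher and 73 lower genes in colour. Right, the genes called in each direction as a percentage of genes tested, by transcript length in bases; the bars for higher genes stand above those for lower genes only over 6000 bases (36 higher and 4 lower of 1407).

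Among genes of moderate level, the rise after Jun itself was led by Mustn1, a small nuclear protein of muscle and cartilage. It stood at 9.25, 9.10 and 7.93 CPM in the Jun libraries and at 4.33, 4.27 and 5.32 CPM in the control libraries, a log2 fold change of 0.92 ± 0.14 (adjusted p = 0.00792, and 0.0294 without control replicate 2). H1fx, a linker histone variant, had 10.97, 10.6 and 11.5 CPM in the Jun libraries and 6.71, 6.39 and 7.41 CPM in the control libraries, 0.69 ± 0.10 (adjusted p = 0.00764, and 0.0257). Npr3, the clearance receptor for natriuretic peptides, had 17.1, 17.5 and 16.8 CPM in the Jun libraries against 12.9, 9.64 and 11.8 CPM in the control libraries, 0.58 ± 0.10 (adjusted p = 0.0210, and 0.0542). In all 3 genes the Jun libraries lay close together, and the naming rule required them to lie above every control library. Nppb, which encodes a natriuretic peptide, also rose, at a lower level, with 2.21, 3.40 and 2.59 CPM in the Jun libraries and 0.737, 0.565 and 0.844 CPM in the control libraries, 1.93 ± 0.32 (adjusted p = 0.0154, and 0.0382).

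Hes1, a basic helix-loop-helix repressor downstream of Notch, rose by 0.65 ± 0.13 (adjusted p = 0.0353, and 0.0915 without control replicate 2), with 9.92, 12.02 and 13.5 CPM in the Jun libraries against 6.57, 7.24 and 8.69 CPM in the control libraries. It was the only called gene of 8 tested Notch receptors, ligands and targets, where 0.956% of all tested genes passed. The Egr1 libraries held Hes1 at 10.7, 11.7 and 10.3 CPM, within the range of the Jun libraries. Hipk2, a kinase known to phosphorylate p53 in human cells, had 103.8, 117.8 and 119.5 CPM in the Jun libraries and 85.8, 77.5 and 80.8 CPM in the control libraries, 0.48 ± 0.063 (adjusted p = 0.0038, and 0.00965). Thsd7a, a membrane protein with thrombospondin repeats, had 72.7, 75.7 and 75.9 CPM in the Jun libraries and 54.3, 57.9 and 52.2 CPM in the control libraries, 0.45 ± 0.05 (adjusted p = 0.00131, and 0.000561). Both were called without any 1 of the 6 Jun and control libraries. Other rises by the rule were those of Mn1 (0.55), a transcription cofactor, Prune2 (0.54), Lum (0.51), Dst (0.41), a linker of the cytoskeleton, and Heg1 (0.40), a membrane receptor of cell junctions. Their adjusted p were 0.0312, 0.0111, 0.0225, 0.0248 and 0.0374, and 0.0750, 0.0461, 0.0515, 0.0778 and 0.105 without control replicate 2.

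**Figure D2:**
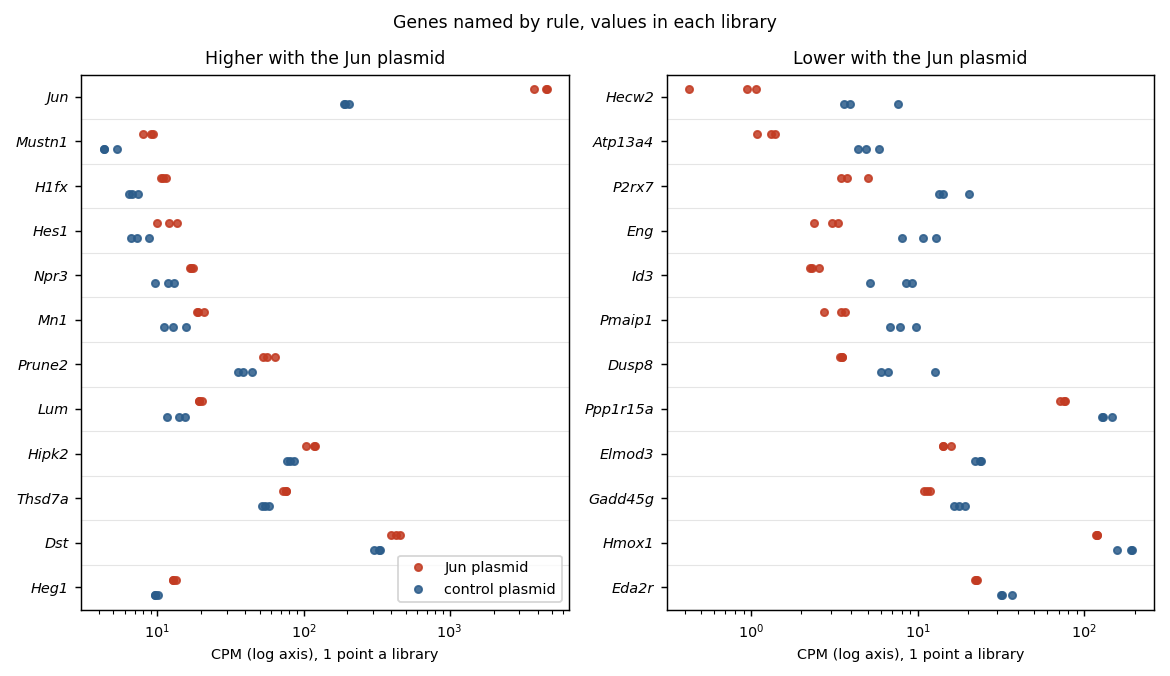
CPM on a log axis in each of the 3 Jun and the 3 control libraries for the 12 higher (left) and 12 lower (right) genes that the naming rule picked. The naming rule admitted only genes without overlap between these groups, so the separation was imposed. Jun points lie above the control points in each row on the left and below them in each row on the right. Jun itself sits between 3806 and 4633 CPM with the plasmid and between 189.8 and 205.3 CPM without.

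Rises larger than that of Jun were in genes close to 0 in the control libraries. The genes in this and the next 2 paragraphs, and Nppb above, were picked after their values were seen; Mmp10 is also a member of 2 lists. Mmp10, or stromelysin 2, is a matrix metalloproteinase, and 88.1% of its 31-mers were unique. It had 198 counts over the Jun libraries and 3 over the control libraries, a ratio of 70.9 (95% interval 23.9 to 346, counting error only), and stood at 1.995, 2.203 and 2.551 CPM in the Jun libraries against 0, 0.106 and 0 CPM in the control libraries (adjusted p = 0.0154, and 0.00249 without control replicate 2). Xirp2, an actin-binding protein of striated muscle, had 86 counts over the Jun libraries and 1 over the control libraries, a ratio of 92.3 (16.1 to 3688; adjusted p = 0.00764, and 0.0235). Both genes had a TGACTCA element in the window shown above, and the windows were shown because they hold a match. The element stood in 3 of 43 promoters of higher genes, in 5 of 58 of lower genes and in 4.82% of those of tested genes. Scaled over all 30 libraries, Mmp10 did not pass 0.195 CPM in any of the 27 libraries without the Jun plasmid, while Xirp2 reached 2.06 CPM in the transduced cells. The Mmp10 call was lost without any 1 of the other 5 Jun and control libraries, with adjusted p up to 0.114. Angptl7, a secreted relative of the angiopoietins, had 72 counts over the Jun libraries and 14 over the control libraries, a ratio of 5.52 (3.09 to 10.6; adjusted p = 0.0465, and 0.0975).

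Late cornified envelope (Lce) genes, which epidermal cells use to build their outer shell, lie together on chromosome 3 with Kprp, a keratinocyte proline-rich protein gene. Over the 22 annotated Lce and Kprp genes, summed counts were 75, 85 and 68 in the Jun libraries, 0, 2 and 0 in the Egr1 libraries and 2, 0 and 1 in the control libraries. Of the 22 genes, 6 had a count in all 3 Jun libraries, and these lay between positions 92685499 and 92851286. A further 12 had none in any Jun library. Kprp had 21, 21 and 16 counts in the Jun libraries against 1, 0 and 0 in the control libraries, a ratio of 62.3 (10.7 to 2501; adjusted p = 0.0203, and 0.0639 without control replicate 2). Lce1d had 14, 16 and 10 counts in the Jun libraries and 0 in the control libraries, at least 14.3-fold higher against a floor of 3 counts over the group (adjusted p = 0.0431, and 0.0923). Lce1l, which did not pass the filter, had 8, 29 and 24 counts in the Jun libraries and 0 in the control libraries, at least 21.8-fold higher. Unique 31-mers made up 100% of Kprp, 59.1% of Lce1d and 78.6% of Lce1l, so counts of single Lce genes are uncertain. The calls of Kprp and Lce1d were lost without any 1 of the 6 Jun and control libraries. Of 27 genes of other cornified families, 2 had a count in all 3 Jun libraries, and both had fewer counts there than in the control libraries. Sprr2a2 (2.17% unique 31-mers) had 57 counts over the Jun libraries and 125 over the control libraries. Flg had 13 and 18, a ratio of 0.78 (0.35 to 1.67). The 19 markers of keratinocytes and simple epithelium summed to 10.4 to 15.4 CPM in the Jun libraries and 22.2 to 27.1 CPM in the control libraries, with 3 to 6 and 0 to 2 of them at 0.

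Another pair of strong rises lay in the interferon-inducible Ifi200 cluster of chromosome 1, where proteins that sense DNA are encoded. Gm7897, annotated as an unprocessed pseudogene (173829799 to 173832254, minus strand, 100% unique 31-mers), had 12.3, 13.2 and 11.3 CPM in the Jun libraries and 0.113, 0.106 and 0.188 CPM in the control libraries. Its log2 fold change was 6.46 ± 0.33 (adjusted p = 3.2e-07, and 1.18e-07 without control replicate 2). It stood at 0 to 0.325 CPM in the 27 libraries without the Jun plasmid. Gm18445, a pseudogene 154.672 kb away with 75.3% unique 31-mers, had 4.99, 3.14 and 3.39 CPM in the Jun libraries and 0.397, 0.565 and 0.313 CPM in the control libraries, 3.17 ± 0.43 (adjusted p = 0.00402, and 0.00371). The genes beside and between them did not pass the threshold. Ifi202b, the most abundant of them, was at 0.35 ± 0.086 (adjusted p = 0.0898), Ifi203 at 0.40 ± 0.13 and Ifi204 at -0.02 ± 0.078.

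**Figure D3:**
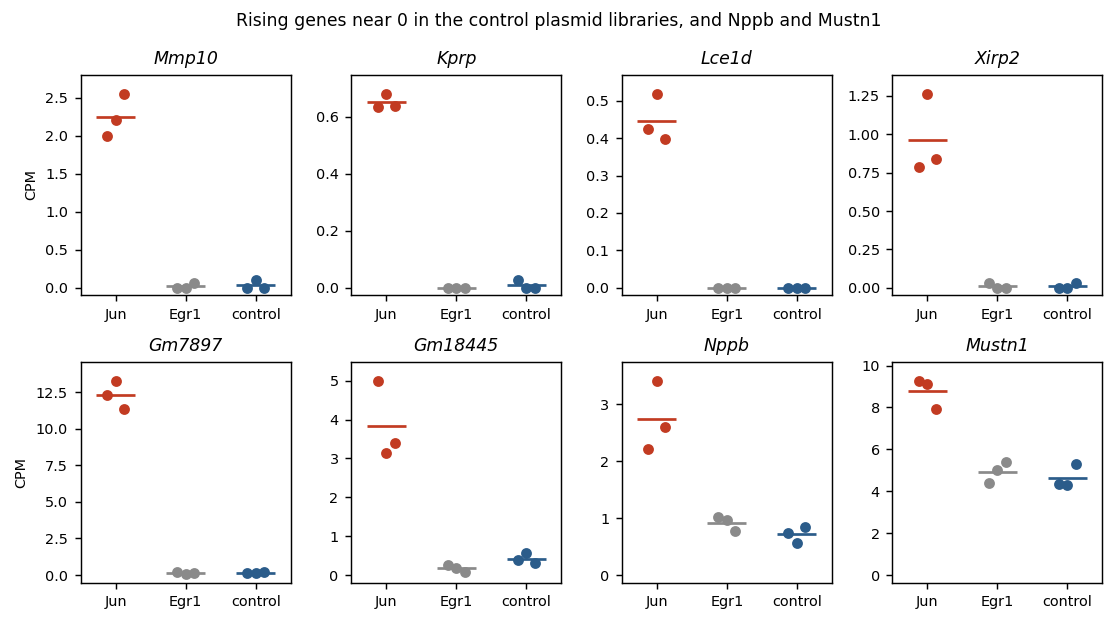
CPM in each Jun, Egr1 and control library (points, with the mean as a line) for 8 rising genes on linear axes. Mmp10, Kprp, Lce1d, Xirp2 and Gm7897 lie at or near 0 in all Egr1 and control libraries and above them in all 3 Jun libraries; Gm18445, Nppb and Mustn1 have counts in all 9 libraries and are highest in the 3 Jun libraries.

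Among the falling genes was Ppp1r15a, also called GADD34, which brings protein phosphatase 1 to the translation factor eIF2α and so ends the stress block on translation. It had 71.8, 75.8 and 77.0 CPM in the Jun libraries and 128.4, 147.2 and 130.2 CPM in the control libraries, a log2 fold change of -0.85 ± 0.077 (adjusted p = 0.000655, and 0.000309 without control replicate 2). Gadd45g, a growth arrest gene, had 10.97, 11.3 and 11.8 CPM in the Jun libraries and 16.6, 17.7 and 19.1 CPM in the control libraries, -0.65 ± 0.091 (adjusted p = 0.0055, and 0.0118). Hmox1, or heme oxygenase 1, had 118.9, 118.3 and 116.7 CPM in the Jun libraries and 156.8, 193.8 and 189.2 CPM in the control libraries, -0.61 ± 0.072 (adjusted p = 0.0038, and 0.00611). For each, the Jun libraries were narrowly spread and below every control library, which selection by a small p favours. Txnip, an inhibitor of thioredoxin, fell by 0.49 on the log2 scale (adjusted p = 0.00764, and 0.0224). Msh3, a mismatch repair gene, fell by 0.55 (adjusted p = 0.0031, and 0.00611), and Oser1, with 67.7% unique 31-mers, by 0.53 (adjusted p = 0.0015, and 0.00395). Arrdc3, a relative of Txnip, was at -0.39 ± 0.07 (adjusted p = 0.0203, and 0.0658) and Gem, a small GTPase, at -0.38 ± 0.082 (adjusted p = 0.0473, and 0.102). Txnip, Msh3, Oser1, Arrdc3 and Gem were added after their values were seen.

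All 27 genes on a list of p53 targets were tested, and 4 of them fell, 0 rose and 23 did not pass, where 0.502% of all tested genes were called lower. Their log2 fold changes were below 0 for 25 of 27, with a median of -0.19 beside -0.006 over all tested genes. Mdm2, the ubiquitin ligase that degrades p53, had 167.1, 171.7 and 171.9 CPM in the Jun libraries and 247.2, 260.6 and 228.7 CPM in the control libraries, -0.53 ± 0.053 (adjusted p = 0.000655, and 0.000561 without control replicate 2). Pmaip1, or Noxa, which binds and blocks survival proteins of the Bcl-2 family, had 2.72, 3.66 and 3.47 CPM in the Jun libraries and 7.85, 9.82 and 6.82 CPM in the control libraries, -1.31 ± 0.21 (adjusted p = 0.0159, and 0.0351). Eda2r, a receptor of the TNF receptor family, had 22.7, 22.03 and 22.4 CPM in the Jun libraries and 31.5, 36.7 and 32.0 CPM in the control libraries, -0.58 ± 0.078 (adjusted p = 0.00402, and 0.00908). In all 3 genes no Jun library reached a control library, which selection by a small p favours. Plk2, a kinase of the centriole cycle, was at -0.24 ± 0.049 (adjusted p = 0.0403), and this call ended without control replicate 2 (0.0874). Cdkn1a, the cell cycle inhibitor p21, was at -0.38 ± 0.09 and did not pass (adjusted p = 0.0916), and Bbc3 was at -0.47 ± 0.18. The list had 3 called members without control replicate 2, and 8, all lower, without both that library and Egr1 replicate 3. Its median was -0.18 with library totals and -0.02 on TPM, where the median of all genes was 0.145.

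**Figure D4:**
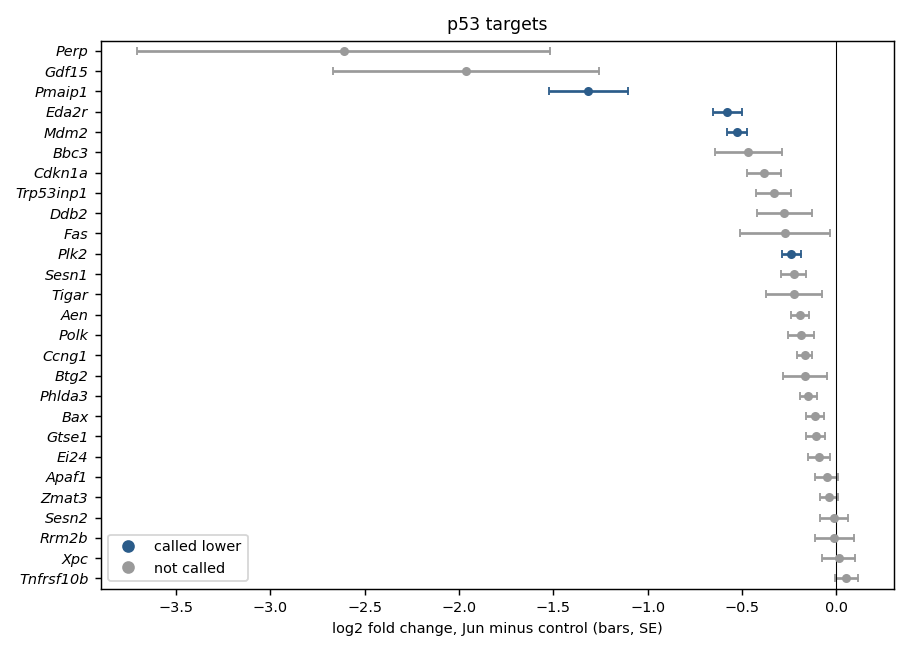
Log2 fold change (Jun minus control) of the 27 p53 targets, with SE as bars, in order of size. The 4 genes called lower are Pmaip1, Eda2r, Mdm2 and Plk2, and 25 of the 27 points lie below 0.

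Larger falls lay outside these lists. The added mScarlet sequence, a red fluorescent protein, stood at 2741, 3363 and 3349 CPM in the Jun libraries, 2905, 2315 and 1921 CPM in the Egr1 libraries and 35419, 39422 and 31350 CPM in the control libraries. That was 0.315%, 0.241% and 3.49% of the counts of these groups, and a log2 fold change between the Jun and control libraries of -3.49 ± 0.18 (adjusted p = 0.000655, and 0.00611 without control replicate 2). The labels do not say which plasmid carried it. GFP_t1, the other added sequence, was at -0.19 ± 0.061 and did not pass (adjusted p = 0.172). The 6 libraries of transduced cells held no mScarlet counts. Leaving both added sequences out before scaling gave 140 called genes, 137 of them also called with them.

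P2rx7, an ATP-gated ion channel, had 3.48, 3.76 and 5.06 CPM in the Jun libraries, 11.8, 9.80 and 9.07 CPM in the Egr1 libraries and 14.2, 20.3 and 13.5 CPM in the control libraries. Its log2 fold change between the Jun and control libraries was -1.97 ± 0.19 (adjusted p = 0.0015, and 9.57e-05 without control replicate 2). Eng, or endoglin, a coreceptor for TGF-beta and BMP ligands, had 2.39, 3.08 and 3.31 CPM in the Jun libraries, 7.41, 5.92 and 5.75 CPM in the Egr1 libraries and 10.8, 12.9 and 8.04 CPM in the control libraries, -1.86 ± 0.19 (adjusted p = 0.000655, and 0.000561). Both were lowest in the Jun libraries without overlap, which the naming rule required against the controls. Hfm1, a helicase of meiosis, had 1 count over the Jun libraries and 108 over the control libraries, a 101-fold lower level (95% interval 17.7 to 4010, counting error only; adjusted p = 0.00402, and 0.00611). Mansc1 was at -4.21, Cdhr1, a photoreceptor cadherin, at -3.44, Slc8a2, a sodium-calcium exchanger, at -2.61, and Evpl, or envoplakin, at -1.75, with adjusted p of 0.0220, 0.0109, 0.0106 and 0.0257, and 0.0493, 0.0327, 0.0195 and 0.0542 without control replicate 2. In the 6 libraries without mScarlet, P2rx7 stayed at or below 0.470 CPM, Eng at or below 1.001 CPM, Evpl at or below 0.629 CPM, Slc8a2 at or below 0.474 CPM, Cdhr1 at or below 0.377 CPM, and Hfm1 and Mansc1 at or below 0.0910 CPM. Those cells were transduced, not transfected. Scaled by library totals, P2rx7 averaged 20.1 CPM in the Prrx1 transfection (mScarlet 13416 CPM) and 15.8 CPM in the control libraries (34930 CPM). It averaged 5.17 CPM in the Prrx1 and Snai1 controls (10753 CPM) and 1.08 CPM in the Srebf2 transfection (536 CPM). P2rx7 and Eng were named by the rule, the other 5 genes were picked after their values were seen, and the part of mScarlet in their change was not tested. Other low genes picked in this way were Bcam (-3.26), an adhesion molecule, Txndc2 (-2.62), a thioredoxin of sperm, and Kctd19 (-2.09), with adjusted p of 0.0474, 0.0255 and 0.0257, and 0.148, 0.0471 and 0.0874 without control replicate 2.

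Further falls by the rule were those of Hecw2, a ubiquitin ligase, and Atp13a4, a cation-transport ATPase. Hecw2 had 0.423, 0.939 and 1.08 CPM in the Jun libraries and 3.94, 7.60 and 3.60 CPM in the control libraries, -2.64 ± 0.41 (adjusted p = 0.0119, and 0.0124 without control replicate 2). In the 6 libraries without mScarlet, Hecw2 stood at 0.719 to 2.18 CPM, with the highest of them above every Jun library. Atp13a4 had 1.09, 1.39 and 1.32 CPM in the Jun libraries, 0.898, 1.37 and 0.874 CPM in the Egr1 libraries and 4.36, 5.83 and 4.91 CPM in the control libraries, -1.99 ± 0.26 (adjusted p = 0.0038, and 0.00829). Here the Jun and Egr1 libraries overlapped each other and both lay below the controls. Elmod3, which acts on Arf-family GTPases, was at -0.65 ± 0.081 (adjusted p = 0.00252, and 0.00611).

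**Figure D5:**
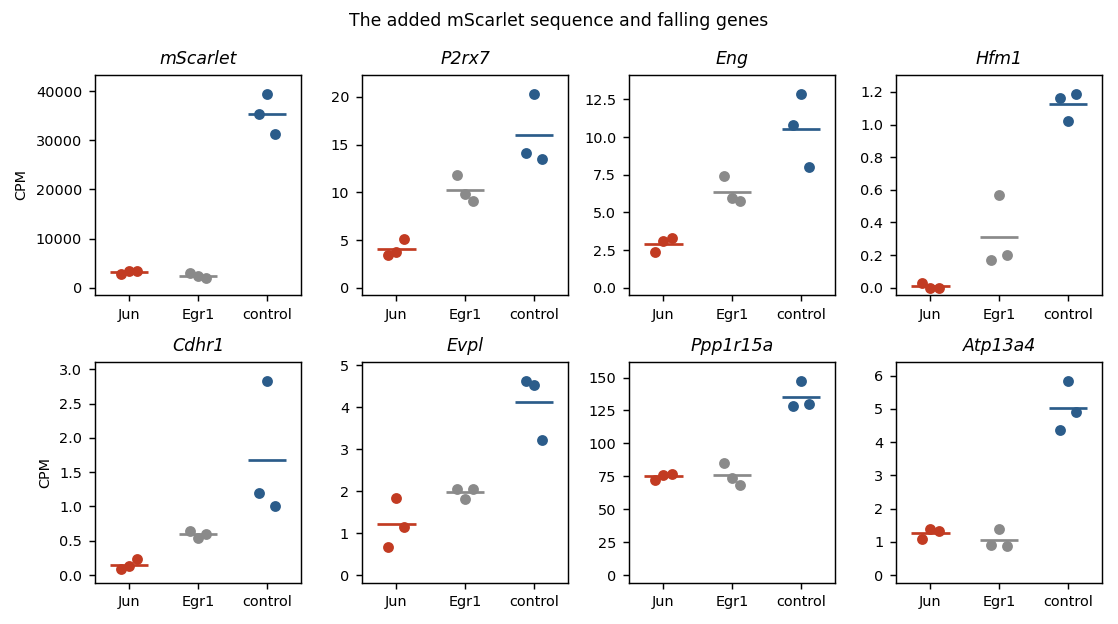
CPM in each Jun, Egr1 and control library (points, with the mean as a line) for mScarlet and 7 falling genes on linear axes. P2rx7, Eng, Hfm1 and Cdhr1 are lowest in the Jun libraries, in between in the Egr1 libraries and highest in the control libraries; mScarlet and Atp13a4 are low in both the Jun and Egr1 libraries, and Ppp1r15a is between 68.5 and 84.8 CPM in both.

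Of 25 reported AP-1 targets tested, 1 rose (Mmp10), 1 fell (Hmox1) and 23 did not pass, where 0.956% of all tested genes passed, and the median was 0.05 beside -0.006 over all genes. Ptgs2, or cyclooxygenase 2, was at 0.36 ± 0.13 (adjusted p = 0.268), and Ccnd1, or cyclin D1 (77.7% unique 31-mers), at -0.01 ± 0.06 (adjusted p = 0.967). For Ptgs2, control replicate 2 was the lowest of the 6 libraries. Mmp10 was also the only called gene of 15 tested metalloproteinases and inhibitors. Mmp2 and Mmp14, the abundant members, were at 0.09 ± 0.045 and 0.01 ± 0.057. Mmp13, a collagenase long described as an AP-1 target, did not pass the filter, with 14 counts over the Jun libraries and 28 over the control libraries.

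Lists of Jun partners and Nrf2 targets are read against the 0.956% of all tested genes that passed and the median of -0.006 over all tested genes. Among 10 tested ATF, BATF and Maf partners of Jun, 2 rose and 2 fell, with a median of -0.21. On TPM, where 8 of them were tested, the median was 0.17 beside 0.145 over all genes. The small Maf proteins lack an activation domain and pair with Nrf2 and Fos. Maff had 53.6, 54.2 and 55.0 CPM in the Jun libraries and 76.4, 72.9 and 68.2 CPM in the control libraries, -0.42 ± 0.058 (adjusted p = 0.00507, and 0.0105 without control replicate 2). Mafk had 27.9, 34.2 and 33.7 CPM in the Jun libraries and 41.6, 42.4 and 44.4 CPM in the control libraries, -0.42 ± 0.079 (adjusted p = 0.0244, and 0.0542). Jdp2, a Jun dimerization protein that represses AP-1 sites, had 33.95, 32.2 and 33.8 CPM in the Jun libraries and 27.8, 25.1 and 25.1 CPM in the control libraries, 0.36 ± 0.066 (adjusted p = 0.0238, and 0.0778). Atf7 (87.3% unique 31-mers) was at 0.22 ± 0.048 (adjusted p = 0.0470, and 0.0971). Mafg, the remaining small Maf, was at -0.00 ± 0.045. Of 20 tested Nrf2 targets, 0 rose and 2 fell, Hmox1 and Nqo1, with a list median of -0.08. Nqo1, a quinone reductase, was at -0.27 ± 0.049 (adjusted p = 0.0210, and 0.0734).

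The signalling lists that follow are read against the 0.956% of all tested genes that passed. Among kinases and scaffolds of the JNK pathway, 0 of 17 tested passed, and 0 of 7 ubiquitin ligases and adaptors of Jun. Of 16 MAP kinase phosphatases and Sprouty inhibitors, 1 fell. This was Dusp8, a phosphatase that acts on JNK and p38, with 3.51, 3.50 and 3.43 CPM in the Jun libraries and 6.66, 12.7 and 6.03 CPM in the control libraries, -1.28 ± 0.25 (adjusted p = 0.0343, and 0.0390 without control replicate 2). Its highest value was that of control replicate 2. Of 18 TGF-beta and BMP targets, 1 fell. Id3, which blocks basic helix-loop-helix factors, had 2.57, 2.27 and 2.31 CPM in the Jun libraries and 5.16, 8.48 and 9.25 CPM in the control libraries, -1.67 ± 0.20 (adjusted p = 0.00223, and 0.00473). Fgfr2, a fibroblast growth factor receptor, was the only called gene of 7 on its list, at -0.36 ± 0.069 (adjusted p = 0.0288, and 0.0971). None of 20 tested Hedgehog genes passed. Gli1, the target and activator of the pathway, had 2.54, 2.56 and 3.23 CPM in the Jun libraries and 3.09, 2.08 and 2.28 CPM in the control libraries, 0.16 ± 0.25 (adjusted p = 0.811). Ptch1, the receptor, was at 0.19 ± 0.065 (adjusted p = 0.180).

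Matrix and adhesion lists are read against the 0.956% of all tested genes that passed. Fn1, or fibronectin, was the only called gene of 27 matrix glycoproteins and crosslinking enzymes, with 11557.5, 11701 and 12765 CPM in the Jun libraries and 10709, 9146 and 9147 CPM in the control libraries, 0.31 ± 0.064 (adjusted p = 0.0388, and 0.0975 without control replicate 2). Lum, or lumican, a small leucine-rich proteoglycan, had 19.2, 20.1 and 19.1 CPM in the Jun libraries and 15.5, 11.6 and 14.0 CPM in the control libraries, and was the only called gene of 7 on its list. It was also the only called gene among the 12 fibroblast markers, whose sum was lowest in control replicate 2. Of 18 integrins, Itgav rose (0.24 ± 0.044, adjusted p = 0.0212, and 0.0691) and Itgb7 fell (-0.35 ± 0.059, adjusted p = 0.0160, and 0.0489). Of 19 collagens, 0 passed. Further rises picked after their values were seen were Pappa (0.37), a protease that frees insulin-like growth factors, Ddr2 (0.25), a collagen receptor kinase, Plod2 (0.25), a collagen lysine hydroxylase, Bmpr2 (0.24), a BMP receptor, and Runx1 (0.24) and Ski (0.23), transcriptional regulators. Marcks, which binds actin and membranes, rose by 0.25 ± 0.049 (adjusted p = 0.0315, and 0.0165 without control replicate 2). Without that library the adjusted p of the 6 genes before it were 0.0614, 0.0960, 0.102, 0.0282, 0.0975 and 0.0557.

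Many of the higher genes had long transcripts. Transcript length, weighted by counts, had a median of 6625 bases among higher genes, 2678 among lower genes and 2780 over all tested genes. Among 1407 genes over 6000 bases, 36 were higher and 4 lower, with a median log2 fold change of 0.07. Among 1283 genes under 1000 bases, 4 were higher and 5 lower, with a median of -0.06. Dst, Fn1, Acaca and Bmpr2 are long genes of this kind, and the part of transcript length in their rise was not tested. Acaca, the acetyl-CoA carboxylase of fatty acid synthesis (66.6% unique 31-mers), was at 0.24 ± 0.042 (adjusted p = 0.0171, and 0.0473 without control replicate 2).

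Of 34 nuclear genes of the respiratory chain, 1 fell and 33 did not pass, where 0.956% of all tested genes passed. Their log2 fold changes were below 0 for 33 of 34, with a median of -0.11 beside -0.006 over all tested genes. Tested genes under 1000 bases had a median of -0.06, and the part of transcript length in this list was not tested. The list's median was -0.09 with library totals, and on TPM it was 0.03 where that of all genes was 0.145. Cox7a2, a subunit of cytochrome c oxidase, was the called member, with 65.2, 67.3 and 66.9 CPM in the Jun libraries and 79.2, 81.9 and 76.0 CPM in the control libraries, -0.25 ± 0.043 (adjusted p = 0.0166, and 0.0649 without control replicate 2). Of 13 mitochondrially encoded genes, mt-Nd5 (83.2% unique 31-mers) rose, at 0.35 ± 0.072 (adjusted p = 0.0467, and 0.160), and 12 of the 13 were above 0. Mitochondrial RNA made up 1.65 ± 0.22% of counts in the Jun libraries, 1.67 ± 0.06% in the Egr1 libraries and 1.38 ± 0.05% in the control libraries (SD, n = 3 each). Jun replicate 2, at 1.40%, lay within the control range of 1.32% to 1.41%.

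Several lists leaned one way with no call, where 0.956% of all tested genes passed. Of 33 interferon-induced genes 28 were above 0, with a median of 0.45 and 0 called. Oasl2 had 7.32, 19.1 and 23.6 CPM in the Jun libraries and 6.20, 9.29 and 5.22 CPM in the control libraries (1.27 ± 0.50, adjusted p = 0.310), so that Jun replicate 1 lay within the range of the controls. Of 25 cholesterol synthesis and uptake genes 24 were above 0, with a median of 0.16 and 0 called. Of 25 contractile and focal adhesion targets of SRF 22 were above 0, with a median of 0.09 and 0 called. No gene passed among 17 G1 cyclins, kinases and inhibitors, 38 replication and mitosis genes, 32 genes of the integrated stress and unfolded protein response, 43 cilium genes, 16 heat shock chaperones, 31 glycolysis and hypoxia genes, 13 NF-kB genes, 16 cytokines and chemokines, 12 transition factors, 11 genes of the EGF receptor family, 12 of PDGF, VEGF and HGF signalling, 10 of plasminogen activation or 10 Wnt genes. Of 16 clock genes, the repressor Nr1d1 fell, at -0.31 ± 0.046 (adjusted p = 0.00792, and 0.0294 without control replicate 2).

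Set directly against the Egr1 libraries, the Jun libraries differed in 64 genes (0.44% of those tested), 15 higher and 49 lower. The count was 26, 36 and 20 without Jun replicate 1, 2 and 3, 22, 25 and 122 without Egr1 replicate 1, 2 and 3, and 39 and 140 without control replicate 1 and 2. Jun was at 4.53 ± 0.081 (adjusted p = 1.17e-11) and Egr1, the immediate early zinc finger factor, at -2.91 ± 0.15 (adjusted p = 0.000443). Mustn1 was at 0.83 ± 0.14, Npr3 at 0.64 ± 0.10, Ifi202b at 0.53 ± 0.087 and Adarb1, an RNA-editing enzyme, at 0.37 ± 0.067, with adjusted p of 0.0172, 0.0172, 0.0256 and 0.0280. Pmaip1 was at -1.72 ± 0.21, P2rx7 at -1.33 ± 0.19, Id3 at -1.21 ± 0.20 and Eng at -1.12 ± 0.19, with adjusted p of 0.00358, 0.0172, 0.0186 and 0.0194. For these 4 genes the Jun libraries were thus lower than both other groups. Ppp1r15a was at -0.02 (adjusted p = 0.960), with 84.8, 73.7 and 68.5 CPM in the Egr1 libraries, and Mdm2 at -0.16 ± 0.053 (adjusted p = 0.283). Hes1, Mn1 and Prune2 were at 0.11, 0.16 and 0.09, with adjusted p of 0.791, 0.593 and 0.708. Thsd7a was called, at 0.33 ± 0.050 (adjusted p = 0.0103). Of the 139 genes called against the controls, 22 were also called against the Egr1 libraries, 11 higher and 11 lower.

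At the transcript level, 10 of 46758 tested transcripts passed (0.0214%), 5 higher and 5 lower, and 6 of them belonged to genes that did not pass. Without Jun replicate 3 the count was 6, and DESeq2 gave 884. Mdfic encodes an inhibitor of MyoD-family factors. Its transcripts Mdfic-201 and Mdfic-207 had equal estimated counts and the same length of 3431 bases, so these 2 of the 10 calls are not separate. Each stood at 11.3, 15.02 and 13.3 CPM in the Jun libraries and at 1.59, 1.36 and 1.64 CPM in the control libraries, 3.11 ± 0.17 (adjusted p = 0.000448). Mdfic-206 (3435 bases) was at 47.9, 38.5 and 43.6 CPM in the Jun libraries and 71.8, 70.8 and 64.9 CPM in the control libraries (-0.67 ± 0.10, adjusted p = 0.149). The gene as a whole was at -0.06 ± 0.056. Cryz, a quinone reductase gene, had lower estimated counts of Cryz-201 (2507 bases). They were 6.91, 8.10 and 7.16 CPM in the Jun libraries against 20.03, 20.4 and 24.7 CPM in the control libraries (-1.55 ± 0.12, adjusted p = 0.00508). The estimate of Cryz-208 (2505 bases) moved the other way without passing, with 21.1, 22.4 and 20.2 CPM in the Jun libraries and 9.43, 4.80 and 1.93 CPM in the control libraries. The gene total was at 0.03 ± 0.062. Nfe2l1-202, from the gene of a stress-activated factor related to Nrf2, rose by 0.76 ± 0.072 (adjusted p = 0.0204). Clec16a-206 and Mpdu1-210 had 0 counts in the Jun libraries and 144 and 248 in the control libraries, at least 44.7-fold and 77-fold lower against a floor of 3 counts over the group (adjusted p = 0.0147 and 0.0347). Estimated counts of isoforms that share sequence carry assignment error that the files do not give.

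Matches in promoters were counted from 250 bases before to 50 after the RefSeq start, in a table that held 43 of the 66 higher, 58 of the 73 lower and 10774 of the tested genes. TGACTCA, on either strand, stood in 5.95% of 27025 promoters, in 4.82% of those of tested genes, in 3 of 43 promoters of higher genes and in 5 of 58 of lower genes. The 3 higher genes were Mmp10, Xirp2 and Asah2, a ceramidase, and the 5 lower genes were P2rx7, Elmod3, Atp13a4, Ndufa5 and Ifitm10. Asah2, Ndufa5 and Ifitm10 are named for this match alone, after their values were seen. TGACGTCA, which reads the same on both strands and contains no TGACTCA, stood in 2.03% of all promoters, in 3.46% of those of tested genes, in 1 of 43 of higher genes and in 9 of 58 of lower genes, among them Ppp1r15a, Maff, Plk2 and Dusp8, which had 2. The variant TGACATCA, on either strand, stood in 4.18% of all promoters and in 2.37% of those of tested genes. It stood in 4 of 43 promoters of higher genes and in 2 of 58 of lower genes. A match is a description of these letters and does not show binding.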

How the data were processed

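Per the submitters' processing notes, bulk mRNA libraries were quantified with kallisto 0.43.0, with mm10 as the build. Which annotation release they used is not given in the sources used here. Each deposited file gives estimated counts and TPM per transcript, per the file headers. Of 118491 targets, 116816 matched GENCODE M21, 1673 did not and 2 were added sequences. Estimated counts were summed per gene and rounded to whole numbers.

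The 9 Jun, Egr1 and control libraries were fitted in edgeR 4.0.16 (R 4.3.3) with TMM scaling, filterByExpr (minimum count 10, total 15), a prior count of 0.125 and the quasi-likelihood test, two-sided, with Benjamini-Hochberg adjustment over all genes at 0.05. SE was derived from the F statistic. DESeq2 1.42.0 and limma 3.58.1 on TPM were alternatives. TPM values were summed per gene and not scaled further between libraries. Intervals (95%, exact) and floors (3 counts) cover counting error only. Uniqueness is the share of a gene's 31-mers found in no other gene; below 90% a level is called uncertain.

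Named genes were Jun, the Jun and Fos subunits, Gli1, Ptch1, the 12 protein-coding genes each way with the largest change among called, non-overlapping, unique genes of at least 5 CPM, up to 4 called members per list, and 5 each way for Jun minus Egr1; others are marked. The members, rules and lists were chosen with earlier results of these data known. On simulated data for Jun minus control with 14539 genes, 68.7%, 73.1% and 78.8% of genes changed 1.5-, 2- and 4-fold were recovered; with 46758 transcripts, 4.48%, 7.46% and 37.9%.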

Additional observations from a re-analysis of the deposited data

Results flagged for a closer look

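Outside the annotated transcripts, 1 of the 1673 unmatched targets, ENSMUST00000230508.1, had a mean of 7.61 CPM in the Jun libraries and 0.496 CPM in the control libraries. It was picked as the unmatched target with a Jun mean of at least 5 CPM and at least 5 times the control mean. The rule also required every Jun library to lie above every control and Egr1 library, so that separation was imposed. It stood at 7.63, 6.83 and 8.36 CPM in the Jun libraries, and in the control libraries at 1.49 CPM in replicate 2 and near 0 in the others. Egr1 replicate 3 held 5.71 CPM and Egr1 replicate 2 held 1.13 CPM. The annotation used here does not say which gene it belongs to.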

How the results depend on the processing

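The log2 fold change of Jun stayed past the threshold in every alternative run, between 4.42 and 4.56 with 1 library left out. Of Jun minus control genes, 139 were called in the main fit, 311 when only the groups compared were fitted, 60 with all 30 libraries, 520 with DESeq2, 224 with library totals only, 252 among genes of at least 5 CPM in 3 libraries, and 1635 and 1646 with limma on log2(TPM + 1) and log2(TPM + 0.1). Of Jun minus Egr1 genes, 64 were called in the main fit, and 128, 99 and 229 with only the groups compared, all 30 libraries and DESeq2, and 14 with either limma fit. Transcripts called were 10, against 884 with DESeq2 and 18 among those of at least 5 CPM. With 1 library left out, the counts ran from 29 to 328 and from 20 to 140 for genes and from 6 to 14 for transcripts. Same-numbered Jun and control libraries did not deviate together (correlations of -0.10, -0.08 and -0.05). Jun replicates 1, 2 and 3 correlated at 0.16, 0.16 and 0.15 with control replicates 2, 3 and 1, and the remaining pairs were negative. The reason was not tested. A block by replicate number gave 71 and 34 genes and 6 transcripts. Chosen after seeing the data, leaving out control replicate 2 and Egr1 replicate 3 together gave 298 and 567 genes, and fitting only the groups compared without control replicate 2 gave 297. Among uncalled subunits, Junb (-0.02) turned to 0.0022 with library totals and to 0.13 on either TPM scale. The medians of all genes on those TPM scales were 0.145 and 0.1555. With 1 library left out, Junb ran from -0.075 to 0.047, Fos from -0.11 to 0.52 and Fosb from -0.064 to 0.26. Fosl2 (0.03) was at -0.0034 without both libraries, at -0.0033 with only the groups compared without control replicate 2, and ran from -0.0030 to 0.062. Fgfr2, called lower, was at 0.088 and 0.092 on log2(TPM + 1) and log2(TPM + 0.1), below the median of all genes there (0.145 and 0.1555). The cause of these moves was not tested. At this depth and with 3 libraries a group, 4.48% of transcripts changed 1.5-fold were recovered in simulated data, so few isoform changes of that size could be called.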
